A study of Rattus norvegicus with 14 samples.

Results

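Rat cell lines were compared by the tissue they came from, 3 from blastocysts and 3 from bone marrow. They account for 12 of the 14 one-colour arrays and 6 of the 7 lines of the study, chosen by the tissue given for each sample. Fi1 (Fischer rat, male), Fi2 (Fischer, female) and Wk8 (Wistar-Kyoto, female) carry the tissue label blastocyst. CL19 (Fischer, female), 3C3 (Fischer, male) and RMAPC-1 (Fischer, male) carry the label bone marrow. The labels call all 6 hypoblast stem cells, the series title ties them to the culture condition of multipotent adult progenitor cells (MAPC), and neither a gene alteration nor a drug is given for any of them. The remaining line, RClone-2, is a mesenchymal control and serves here only to read marker genes against. Each line was hybridized on an array A and an array B, and nothing says that these came from separate cultures. A line was therefore counted as 1 replicate, and all p-values measure the spread between 3 lines on each side. Wk8 is the only line that is not Fischer, so its strain cannot be told apart from its being that line.

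The hypoblast, or primitive endoderm, is the layer of the late blastocyst that faces the fluid-filled cavity. It is set apart from the epiblast by FGF signalling and by GATA and SOX transcription factors. Its cells later become visceral endoderm, a polarized epithelium that takes up nutrients through endocytic receptors and secretes lipoproteins, or parietal endoderm, migratory cells that lay down the thick basement membrane of the yolk sac. The change from the visceral to the parietal state is a textbook case of an epithelial to mesenchymal transition, in which E-cadherin and apical proteins are lost and N-cadherin, vimentin and matrix proteins are gained.

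A level below is the log2 of the processed signal relative to the 75th percentile of the same array, so that a gene at 0 is as bright as that percentile. A difference is the mean of Fi1, Fi2 and Wk8 minus the mean of CL19, 3C3 and RMAPC-1, given with its standard error (SE, 3 lines against 3). Levels of single lines are given in the order Fi1, Fi2, Wk8 and then CL19, 3C3, RMAPC-1. Levels of different genes come from different probes and are not compared with each other. A gene was called where the Benjamini-Hochberg adjusted p of limma was under 0.05 and the difference was at least 1 on the log2 scale. Arrays of blastocyst lines had a 75th percentile between 745.7 and 891.5, those of bone marrow lines between 558.9 and 660.1. Between 61.77% and 68.03% of probes stood well above background.

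Both groups carried the markers of primitive endoderm. All 7 markers of that layer were well above background on all 12 arrays, and their summed linear signal relative to the 75th percentile ranged from 340 to 419 in blastocyst lines, from 264 to 325 in bone marrow lines and from 1.01 to 1.04 in RClone-2. The laminin gene Lama1 made up the larger part of this sum in the blastocyst lines, at 7.6 to 8.13 against 5.96 to 7.26. Gata6 (4.26 to 4.63 against 4.87 to 5.31) and Foxa2 (4.89 to 5.35 against 5.48 to 6.31) were lower there. The ranges of Gata4, Sox7, Sox17 and Pdgfra overlapped, so the higher sum does not hold for each marker. Mesenchymal markers summed to 0.637 to 0.763 in the blastocyst lines, 1.01 to 1.32 in the bone marrow lines and 328 to 437 in RClone-2, and 5 of the 9 were below background on all 12 arrays. Of the blood markers, 3 of 6 were above background on all arrays, with sums of 1.08 to 1.67 and 0.806 to 1.64. Endothelial markers summed to 1.41 to 3.24 in the blastocyst lines and 0.398 to 0.913 in the bone marrow lines, and 6 of 8 were above background on all arrays. Trophoblast markers summed to 0.365 to 0.563 and 0.207 to 0.4. Epiblast markers went the other way, with sums of 0.802 to 2.38 in the blastocyst lines and 5.5 to 9.52 in the bone marrow lines. Pou5f1 made up the larger part of this sum and Otx2 the rest, since Fgf5 was below background on all 12 arrays, Sox2 on all but 1 and Nanog was not matched to a probe.

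Of the 4 bone marrow arrays labelled male, 3 had no signal for Y-linked genes. Eif2s3y and Ddx3y, widely expressed genes of the Y chromosome, were above background on both Fi1 arrays, with Eif2s3y at 1.82 and 1.60 and Ddx3y at -1.95 and -1.91. On the arrays of 3C3, labelled male, Eif2s3y read -8.23 and -8.01 and Ddx3y -8.10 and -7.06, none of them above background. Array A of RMAPC-1, also labelled male, read -7.05 and -7.31 for these genes, while its array B read 2.09 and -1.01. None of the 6 arrays labelled female had either gene above background. The reason was not tested, and a term for the labelled sex is among the alternatives.

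The arrays of RMAPC-1 also differed from each other. Over 10822 genes well above background on the arrays, which are not independent replicates, array A correlated with array B at 0.992 to 0.998 in the other 5 lines and at 0.971 in RMAPC-1. In RMAPC-1, 1374 of these genes were over 2-fold apart between the arrays, against 34 to 247 in the other lines, and 304 of the 1374 were among the genes called between blastocyst and bone marrow lines. Array A of RMAPC-1 correlated with the CL19 arrays at 0.987 to 0.988 and array B at 0.982. Over all 10822 genes compared, 788 were among the called genes. For most lists the count without RMAPC-1 is given beside the full count. In bulk RNA, fewer cells of a type and less RNA per cell cannot be told apart.

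The medians of chromosome 11 stood apart in 3C3, and those of chromosome 19 in 3C3 and on array B of RMAPC-1. Each gene was set against its median over the 12 arrays, by its position in the files (build rn4). On both arrays of 3C3 the median deviation of the 468 genes on chromosome 11 was 0.26 and 0.28, and that of the 543 genes on chromosome 19 was 0.26 and 0.31. On array B of RMAPC-1 chromosome 19 was at 0.23, and on its array A at -0.06. All other chromosomes were between -0.06 and 0.08 on every array. On chromosome 19 beyond 20 Mb, a boundary chosen after the values were seen, the median was 0.32 and 0.35 in 3C3 and 0.35 on array B of RMAPC-1. In the first 20 Mb it was -0.64 on that RMAPC-1 array and -0.11 to 0.16 on the others. The first 20 Mb of chromosome 11, with 23 genes, read -0.04 and -0.07 in 3C3, so that neither chromosome was shifted along its whole length there. Chromosome 11 held 2.69% of all positioned names, 2.45% of those called higher and 3.76% of those called lower, and chromosome 19 held 2.97%, 2.55% and 3.14%. Genes on these chromosomes are marked below, and the part of these shifts in their differences was not tested.

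**Figure D1:**
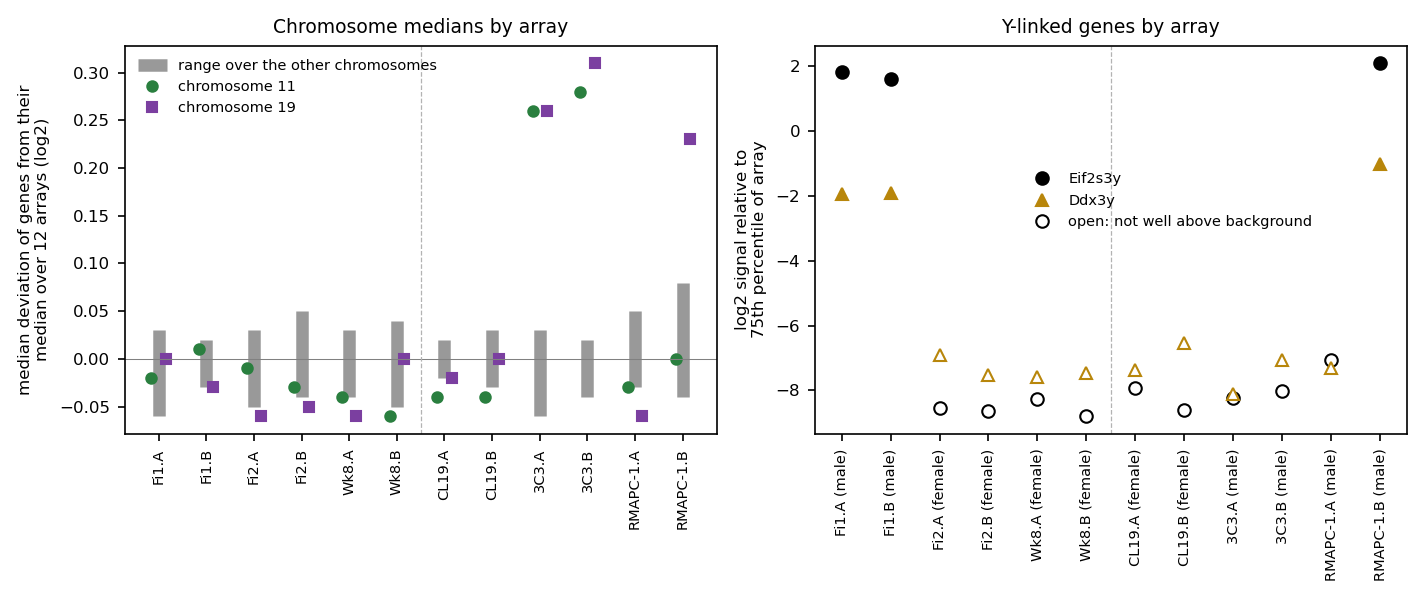
Left, the median deviation of the genes of chromosome 11 (circles) and chromosome 19 (squares) from their median over the 12 arrays, on the log2 scale, for each array, with the range over the other chromosomes as grey bars; both chromosomes lie at 0.26 to 0.31 on the 3C3 arrays and chromosome 19 lies at 0.23 on array B of RMAPC-1. Right, the levels of Eif2s3y and Ddx3y on each array with the labelled sex, open where not well above background; the 3 arrays with signal are both Fi1 arrays and array B of RMAPC-1.

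Of 23442 names tested, 1116 (4.76%) were called higher in the blastocyst lines and 1660 (7.08%) lower. Among the 12593 that carry a gene symbol, 694 (5.51%) were called higher and 439 (3.49%) lower. Without RMAPC-1 these counts fell to 404 (3.21%) and 249 (1.98%), and 602 of the 1133 called genes with a symbol kept their call. Whichever of the 6 lines was left out, 479 of the 1133 were called each time. Without the size limit, 8002 of the 23442 names had an adjusted p under 0.05, 2067 higher and 5935 lower. At least as many had an unadjusted p under 0.05. The median difference of all names was -0.22 and that of genes with a symbol -0.13, so the blastocyst lines read slightly lower as a whole on this scale. The balance of the calls depended on the scaling: 40.2% of all calls were on the higher side as scaled here, 51.1% after quantile normalization, 55.7% when arrays were scaled to their median, 85.1% without scaling and 22.7% when scaled to the spiked-in transcripts. For 21 of the 67 gene lists, calls on the other side outnumbered those on the side reported here under at least 1 other scaling, and this is stated beside the lists described.

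Fi1, Fi2, Wk8 and CL19 shared slides 1 and 3, and 3C3 and RMAPC-1 lay on slides 2 and 4, so that only CL19 can be compared with blastocyst lines on the same slides. Fi1 and Fi2 also share their strain with CL19. Of the 694 genes called higher, 394 were at least 1 higher in both Fi1 and Fi2 than in CL19, and of the 439 called lower, 257 were at least 1 lower in both. These values share CL19 with the main comparison and are no separate evidence. Fi1 and Fi2 against CL19 alone, with limma's spread from the other lines, gave 0 calls over 23442 names at the adjusted threshold and 6430 names at an unadjusted p under 0.05. A term for the pair of slides gave 0 calls and 6336 such names.

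Several structural proteins of the basement membrane, the sheet that parietal endoderm secretes, were higher in the blastocyst lines. Nidogen 1 (Nid1), which links the laminin and collagen IV networks, read 4.36, 3.62 and 5.24 against 0.92, 0.21 and 0.07, a difference of 4.01 ± 0.45 or 16.1-fold (adjusted p = 0.00508). Its lowest blastocyst line was brighter than its highest bone marrow line, and the lines were likewise apart for every called name. Its 3 probes gave 3.58 to 4.01. The probe that stands for Nid1 (rn4 chr17:66858545-66859398, minus strand, spanning a gap in the genome) is shown because it carries the largest difference of the family.

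Nid1 probe: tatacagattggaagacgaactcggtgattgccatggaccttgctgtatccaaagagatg

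Laminin α4 (Lama4) read -2.40, -3.21 and -3.01 against -5.54, -6.58 and -5.94, 8.83-fold higher with a difference of 3.14 ± 0.33 (adjusted p = 0.00481). Array A of 3C3 read -7.33 for Lama4, below the dimmest signal above background on that array (-6.13). Laminin γ1 (Lamc1), the chain shared by most laminins, was at 4.75, 5.06 and 5.42 against 3.61, 3.05 and 3.78, a difference of 1.60 ± 0.26. Smoc2, a calcium-binding matrix protein, was at least 4.71-fold higher, since none of the 6 bone marrow arrays was well above background for it. A second Smoc2 probe gave 1.06 ± 0.59 and was not called (adjusted p = 0.211). Other abundant matrix genes were not called. Collagen IV α1 (Col4a1), at 8.02, 7.94 and 8.34 against 8.01, 7.96 and 7.84, and osteonectin (Sparc), at 8.47, 8.38 and 8.72 against 8.56, 8.50 and 8.21, were near the top of the array in all 6 lines, with differences of 0.16 ± 0.14 and 0.10 ± 0.15. Of 23 basement membrane genes 9 were called, all of them higher, and 4 without RMAPC-1. The median of the 23 was 0.81, against -0.13 over all genes with a symbol, and Nid1, Lama4 and Lamc1 were called whichever line was left out. The call of Smoc2 was lost without 3C3 and without RMAPC-1, with an adjusted p of up to 0.0608. Under the other scalings 4 to 11 members were called higher and none lower.

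Other parts of the matrix and its receptors moved in single members. The integrin α9 chain (Itga9), a receptor for tenascin and osteopontin, was 21.1-fold higher (difference 4.40 ± 0.32, adjusted p = 0.00309), at -0.26, -1.39 and -0.74 against -4.86, -5.23 and -5.50. Itga9 and the α4 chain (Itga4, 2.97 ± 0.84) were 2 of 20 integrin chains called, 1 without RMAPC-1. The call of Itga4 held only without Fi2 among the 6 omissions, with an adjusted p of up to 0.101 in the others. Of 33 matrix proteases and their TIMP inhibitors 7 were called, all higher, and 5 without RMAPC-1. They include the metalloproteases Mmp23 (2.80 ± 0.47) and Mmp24 (1.65 ± 0.18), the disintegrin Adam23 (1.88 ± 0.27) and Adamts1 (1.94 ± 0.39, on chromosome 11), whose call was lost without Fi1 or 3C3 (adjusted p up to 0.0553). Tissue plasminogen activator (Plat), secreted by parietal endoderm, read -0.23, -1.13 and 0.14 against -3.48, -3.30 and -4.17, 9.48-fold higher. In the opposite direction, the fibrillar collagen chain Col5a3 read -2.09, -0.72 and -2.29 against 0.93, 0.92 and 1.31, lower by a difference of -2.75 ± 0.43 (adjusted p = 0.00922). Of 23 fibrillar and other collagens 1 was called higher and 2 lower, and none and 1 without RMAPC-1. Without scaling between arrays the balance turned to 5 higher and 1 lower.

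Caveolae, flask-shaped pits of the plasma membrane that buffer tension, were represented by 12 genes, of which 5 were called, all higher, and 4 of them without RMAPC-1. Caveolin 1 (Cav1), the main coat protein, read 0.11, -1.51 and -1.24 against -5.12, -5.28 and -5.23, 20.1-fold higher (difference 4.33 ± 0.42, adjusted p = 0.00428). This probe was above background on 10 of the 12 arrays, so the fold rests in part on signal not above background. Other Cav1 probes gave smaller differences of 3.06 ± 0.42 and 2.84 ± 0.43. The Cav1 partner Cav2 was at least 7.89-fold higher, with no bone marrow array well above background. Ehd2, the ATPase at the neck of the pit, read -2.47, -2.86 and -1.60 against -5.09, -4.56 and -4.67 (2.46 ± 0.34). Its relative Ehd3, which works in endocytic recycling, differed by 2.29 ± 0.20, while Ehd1 read 4.40, 4.51 and 4.17 against 4.74, 4.85 and 4.52 and was not called (-0.34 ± 0.15). Cav1, Cav2, Ehd2 and Ehd3 were called whichever line was left out. Pdlim3, a PDZ and LIM domain protein that binds α-actinin at the Z-disc of muscle, read 0.86, -1.16 and -1.17 against -4.95, -5.39 and -6.03, 31.3-fold higher (4.97 ± 0.61). Array A of RMAPC-1 read -6.57 for Pdlim3, below the dimmest signal above background on that array (-5.92). Fi1 was the brightest of the 6 lines for Cav1 and Pdlim3. Filamin C (Flnc), an actin crosslinker, was the only one of 29 actin contractile genes called (1.61 ± 0.23), against 2 without RMAPC-1. Within the PDZ and LIM family 3 of 27 were called higher and 2 lower, the latter being Pdlim4 (-2.89 ± 0.46) and Limch1, an activator of non-muscle myosin (-2.11 ± 0.22), which was above background on 1 of 6 blastocyst arrays. Without RMAPC-1 the family had 2 each way, and with spike-in scaling its balance turned to 2 higher and 4 lower. The myelin tetraspan protein Pmp22 read -0.91, -1.30 and -1.25 against -5.29, -5.29 and -6.58, 23.7-fold higher (4.57 ± 0.38).

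**Figure D2:**
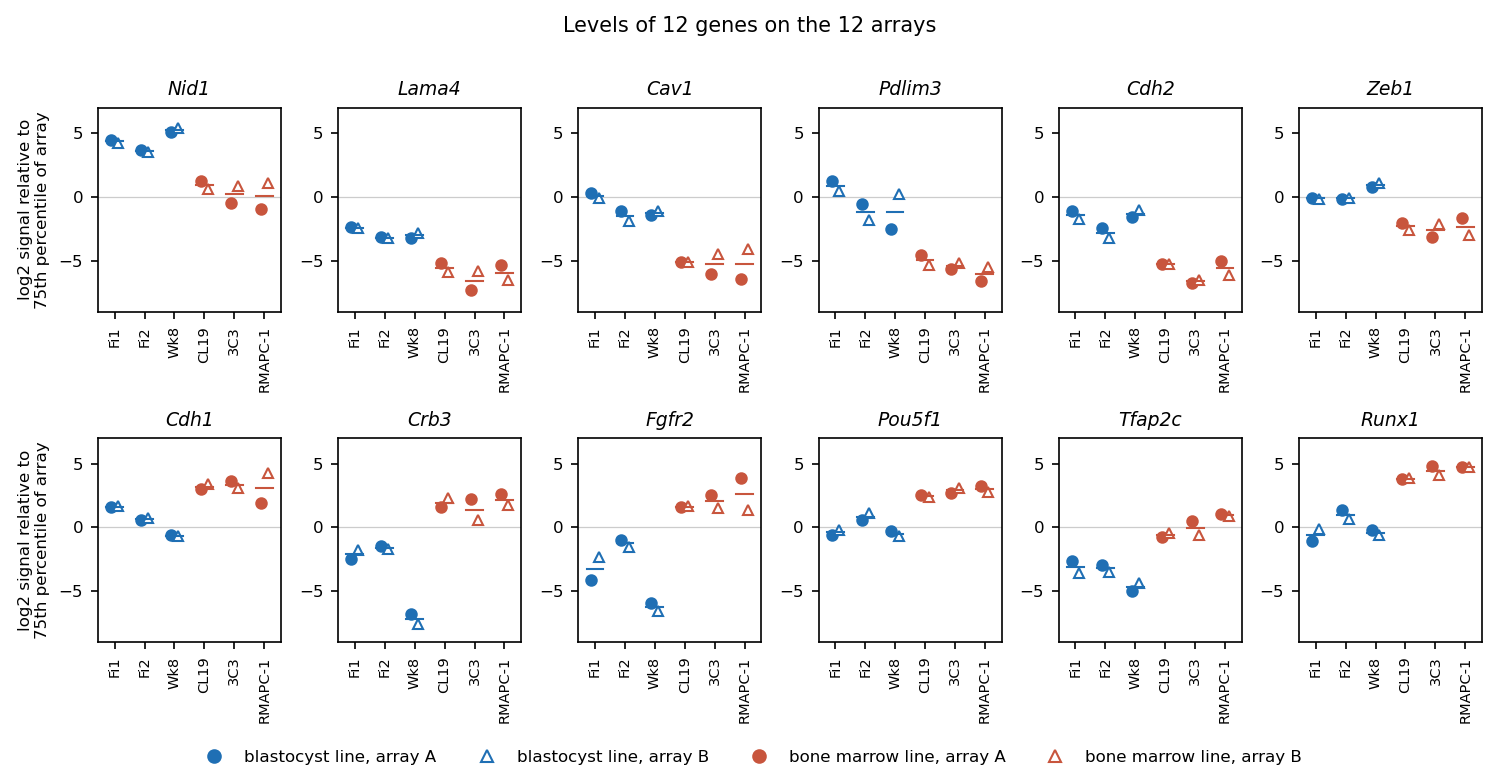
Levels of 12 genes on each array, as log2 signal relative to the 75th percentile of the array, by line; circles are array A, triangles array B, bars the mean of a line, blue the blastocyst lines and red the bone marrow lines. The line means of the groups do not overlap for any of the 12, which holds for all 2776 called names. Wk8 is far below Fi1 and Fi2 for Crb3 and Fgfr2, and the 2 arrays of RMAPC-1 differ more than those of the other lines for Cdh1 and Fgfr2.

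The cadherins differed in opposite directions. N-cadherin (Cdh2) read -1.39, -2.83 and -1.32 against -5.26, -6.62 and -5.57, 15.7-fold higher (difference 3.97 ± 0.53, adjusted p = 0.0071), and was called whichever line was left out. Its probe was above background on 11 of the 12 arrays, so the fold rests in part on signal not above background. E-cadherin (Cdh1), on chromosome 19, read 1.62, 0.65 and -0.64 against 3.20, 3.36 and 3.07, 6.36-fold lower (-2.67 ± 0.55, adjusted p = 0.0174), with a lost call without RMAPC-1 and without 3C3 (adjusted p up to 0.0599). Fi1 was the brightest and Wk8 the dimmest of the blastocyst lines for Cdh1. Plakophilin 2 (Pkp2), a desmosome plaque protein on chromosome 11, read -1.67, -1.88 and -1.89 against 0.78, 0.83 and -0.16 (-2.29 ± 0.29). The catenins that tie both cadherins to actin were not called: Ctnnb1 (β-catenin) read 3.38, 3.62 and 3.66 against 3.46, 3.46 and 3.38. In all, 3 of 25 cadherin and desmosome genes were called higher and 2 lower, 1 each without RMAPC-1, and normexp background correction turned the balance to 1 higher and 2 lower.

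Of the factors known to drive or restrain an epithelial to mesenchymal transition, 3 of 13 were called higher and 3 lower, and without RMAPC-1 3 and 1. Zeb1, a zinc finger repressor of Cdh1 that binds paired E-boxes, read -0.11, -0.11 and 0.92 against -2.31, -2.61 and -2.32, 6.27-fold higher (2.65 ± 0.30, adjusted p = 0.00547). Snai1, which also represses Cdh1, read 4.20, 3.91 and 4.39 against 2.84, 3.01 and 2.75 (1.30 ± 0.16). Id4, an inhibitor of basic helix-loop-helix factors, was 1.56 ± 0.28 higher. Its relative Id3 was lower at 2.15, 2.01 and -0.19 against 3.83, 3.70 and 3.45 (-2.34 ± 0.63), where Wk8 stood well below the others and the call was lost without any single bone marrow line (adjusted p up to 0.0958). Goosecoid (Gsc), a homeobox gene of the organizer, was lower by -2.29 ± 0.37. The calls of Zeb1, Snai1, Id4 and Gsc held whichever line was left out. Vimentin (Vim), a filament protein of mesenchymal cells and parietal endoderm, read 4.84, 5.23 and 4.05 against 5.42, 3.80 and 4.36 and was not called (0.18 ± 0.49). The Zeb1 probe (rn4 chr17:60177705-60177764, minus strand) is shown for its size among the repressors.

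Zeb1 probe: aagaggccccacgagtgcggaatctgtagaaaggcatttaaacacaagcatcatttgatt

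Epithelial genes were mostly on the lower side. Of 20 genes of epithelial adhesion and splicing, 5 were called lower and 1 higher, 2 and 1 without RMAPC-1, and 18 of the 20 had a negative difference with a median of -0.90. St14 (matriptase), a membrane serine protease of epithelia, read -0.58, -0.70 and -1.28 against 1.24, 1.07 and 0.80 (-1.89 ± 0.23) and was called whichever line was left out. Mal2, a protein of apical transport, differed by -2.35 ± 0.47, a call lost without RMAPC-1 and without 3C3 (adjusted p up to 0.0585). The exception was Grhl2, a grainyhead factor that activates epithelial genes, which was higher at -3.46, -3.40 and -2.24 against -5.02, -4.73 and -4.20 (1.61 ± 0.39), a call lost without CL19 or 3C3 (adjusted p up to 0.081). Ap1m2, a subunit of the basolateral sorting adaptor, read 1.37, 1.51 and -1.46 against 3.34, 3.02 and 2.90 and missed the threshold (-2.61 ± 0.80, adjusted p = 0.0502). The family stayed on the lower side under each of the other scalings, with 3 to 7 called lower and 0 or 1 higher.

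Crumbs 3 (Crb3), an apical polarity protein, read -2.12, -1.60 and -7.21 against 1.93, 1.37 and 2.18, 44.3-fold lower (-5.47 ± 1.47, adjusted p = 0.0349). Wk8 was not above background on either array, and the call was lost when Fi1 or any bone marrow line was left out (adjusted p up to 0.0975), and the mean of Fi1 and Fi2 differed from CL19 by -3.79. Tight junction genes included 4 called of 27, all lower, and none called without RMAPC-1. Claudin 6 (Cldn6), an early embryonic claudin, read -2.95, -2.36 and -4.66 against -0.78, -0.34 and -0.85 (-2.66 ± 0.58), and the scaffold Tjp3 -2.96, -1.97 and -3.15 against -1.48, -1.42 and -0.91 (-1.42 ± 0.34). Claudin 11 (Cldn11) differed by -2.35 ± 0.58, and each of these 3 calls was lost without any one of Fi1, CL19, 3C3 or RMAPC-1, that of Tjp3 also without Wk8 (adjusted p up to 0.0825). The claudin family turned without scaling between arrays, where 5 were called higher and 1 lower.

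The promoters of these genes were read for the E-box CACCTG and its reverse complement CAGGTG, the letters to which the Zeb and Snail repressors are known to bind, since Zeb1 and Snai1 were called higher. The window was 300 bases around the start of a gene, from RefSeq (assembly GRCr8), and both strands were searched. These letters were in 5121 of 27457 promoters (18.7%) and in 1858 of the 10221 tested genes with a promoter (18.2%). They were in 92 of 566 called higher (16.3%) and 84 of 324 called lower (25.9%). Of the epithelial genes, all 10 with a promoter in the table held them, of tight junction genes 10 of 22 (45.5%), of cadherin and desmosome genes 6 of 13 (46.2%) and of apical polarity genes 4 of 17 (23.5%). The 10 epithelial genes were those with a promoter among 20, 9 of the 10 were not called, and the set was not tested. Of the genes on these 4 lists with a promoter, 6 were called lower, and the 4 with a match before the start site are given below, 250 bases each, with the E-box letters in capitals. Crb3 lies at chr9:1987504-1987753 (plus strand), Cldn6 at chr10:13215558-13215807 (plus), Tjp3 at chr7:9084174-9084423 (plus) and Epcam at chr6:12649679-12649928 (minus). A match is a description of the sequence and not a binding site.

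Crb3 promoter: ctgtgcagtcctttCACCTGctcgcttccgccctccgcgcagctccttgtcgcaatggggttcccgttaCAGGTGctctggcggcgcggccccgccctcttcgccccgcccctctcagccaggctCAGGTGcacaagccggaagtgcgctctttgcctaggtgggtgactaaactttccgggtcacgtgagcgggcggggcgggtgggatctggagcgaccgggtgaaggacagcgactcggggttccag
Cldn6 promoter: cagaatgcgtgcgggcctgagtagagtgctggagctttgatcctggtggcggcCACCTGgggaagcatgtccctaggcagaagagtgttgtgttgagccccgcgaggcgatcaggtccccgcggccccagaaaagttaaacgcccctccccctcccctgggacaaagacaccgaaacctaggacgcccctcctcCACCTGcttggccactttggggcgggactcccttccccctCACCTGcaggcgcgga
Tjp3 promoter: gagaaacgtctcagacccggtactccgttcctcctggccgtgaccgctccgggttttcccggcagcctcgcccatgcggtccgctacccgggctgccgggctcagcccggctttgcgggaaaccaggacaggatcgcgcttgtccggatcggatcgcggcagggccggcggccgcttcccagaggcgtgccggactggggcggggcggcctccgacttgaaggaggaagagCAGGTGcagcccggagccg
Epcam promoter: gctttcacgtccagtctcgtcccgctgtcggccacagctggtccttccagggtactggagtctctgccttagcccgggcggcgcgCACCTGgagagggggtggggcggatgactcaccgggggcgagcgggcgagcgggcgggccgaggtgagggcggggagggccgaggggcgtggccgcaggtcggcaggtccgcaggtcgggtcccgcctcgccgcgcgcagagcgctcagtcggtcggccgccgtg

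The capitals mark 3 matches in Crb3, 3 in Cldn6, 1 in Tjp3 and 1 in Epcam. The other two genes called lower are not shown: Cldn11, whose single match lay 14 bases after the start, and angiomotin (Amot, -1.26), a junction protein with no match in the window. Epcam, the epithelial cell adhesion molecule, read 2.01, 1.86 and 0.79 against 3.13, 2.90 and 3.07 (-1.48 ± 0.33), a call lost without any single bone marrow line (adjusted p up to 0.068). Epcam and Amot lie outside the naming rule and were chosen for their promoters after their values were seen.

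Keratins and other filament genes gave 3 calls of 24, all higher, and 2 without RMAPC-1. Krt6c, a keratin of stratified epithelia, read 0.38, 0.64 and 1.76 against -2.69, -2.90 and -3.63, 16.0-fold higher (4.0 ± 0.43, adjusted p = 0.00488). Keratins of one subfamily are similar in sequence, so the probe may also read a relative. The simple-epithelium keratin Krt18 read 7.68, 7.11 and 7.63 against 8.25, 8.52 and 7.88 (-0.74 ± 0.23) and was not called.

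**Figure D3:**
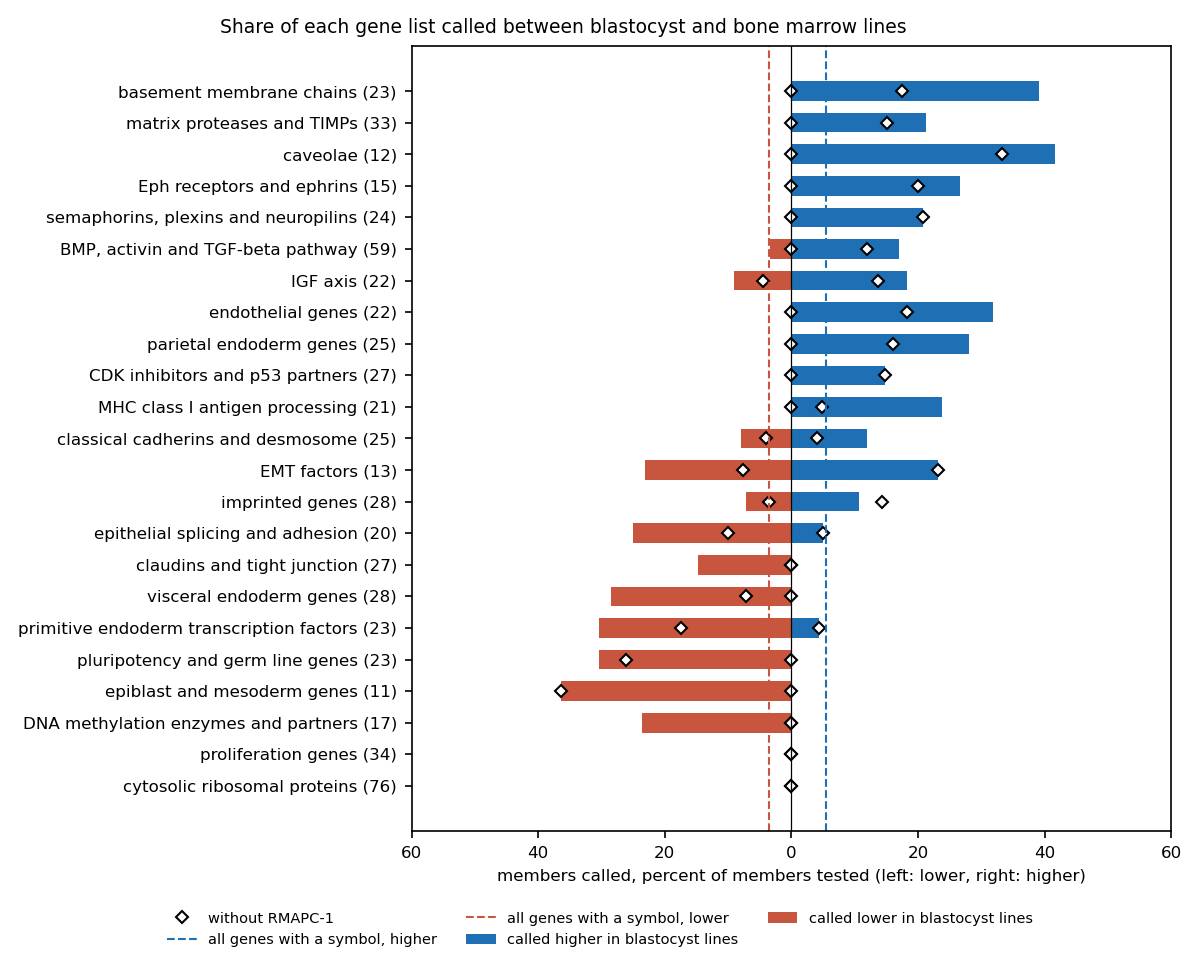
Percent of the tested members of 23 gene lists called higher (blue, right) or lower (red, left) in the blastocyst lines, with the number tested in parentheses; diamonds are the same without RMAPC-1 and dashed lines the percent of all genes with a symbol (5.51% and 3.49%). Basement membrane, caveola and endothelial genes reach furthest to the right, and epiblast genes, primitive endoderm factors and pluripotency genes furthest to the left, and no proliferation or ribosomal protein gene was called.

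The transcription factors that make a hypoblast cell were present on both sides. None of the 4 GATA genes was called by limma, and 2 had an unadjusted p under 0.05, both lower. At least 8002 of all 23442 names had such a p. Gata4 read 4.89, 4.89 and 4.72 against 5.29, 5.10 and 4.97 (-0.28 ± 0.13), and Gata6 4.60, 4.35 and 4.50 against 5.06, 4.89 and 5.13 (-0.54 ± 0.13). Gata2, a blood and trophoblast factor, and Gata1, the erythroid factor, differed by -0.59 ± 0.17 and 0.12 ± 0.22. The differences of Gata4 and Gata6 stand beside a shift of -0.22 over all names. Other Gata6 probes gave 0.018 ± 0.11 and -0.209 ± 0.11 and were not called, so the Gata6 difference rests on 1 probe.

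Within the wider list of primitive endoderm factors 7 of 23 were called lower and 1 higher, and 4 and 1 without RMAPC-1. Tfap2c, an AP-2 factor of trophoblast and germ cells, read -3.12, -3.21 and -4.72 against -0.61, -0.09 and 0.96, 13.7-fold lower (-3.77 ± 0.58, adjusted p = 0.00896). Cited1, a transcriptional co-regulator, read -0.47, -0.08 and -1.70 against 2.53, 2.02 and 2.13 (-2.98 ± 0.43). Otx2, a homeobox gene of visceral endoderm and epiblast, was lower by -1.20 ± 0.17. These 3 were called whichever line was left out, although another Otx2 probe gave -0.61, short of the threshold of 1. The call of Otx2 was lost on the A arrays alone (adjusted p = 0.15) and on the B arrays alone (0.138). It was also lost without array B of RMAPC-1 (-0.73, adjusted p = 0.165). Foxq1, a forkhead factor, read 0.79, 0.43 and -2.14 against 2.84, 2.93 and 2.96 (-3.22 ± 0.76), with Wk8 lowest and a call lost without any single bone marrow line (adjusted p up to 0.074). The nuclear receptor Nr2f2, known as COUP-TFII, was the member called higher, at 0.25, -0.43 and -0.16 against -1.49, -1.94 and -1.78 (1.62 ± 0.22). Under the other scalings 3 to 8 of the list were called lower and 1 or 2 higher.

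Calls among genes of the visceral state were lower, and calls among genes of the parietal state higher. Of 28 visceral endoderm genes 8 were called lower, 2 without RMAPC-1, and the median was -1.14. Without scaling between arrays 2 were called higher and 1 lower, although the median stayed at -0.66. Amnionless (Amn), which anchors the cubilin receptor, read 3.43, 4.83 and 0.12 against 6.56, 6.49 and 6.61, 13.5-fold lower (-3.76 ± 1.14, adjusted p = 0.0489). Its adaptor Dab2 read 2.21, 2.54 and 0.81 against 4.03, 3.24 and 3.68 (-1.80 ± 0.48), and Wk8 was lowest for both. Each of these calls was lost without any one of Fi1, CL19, 3C3 or RMAPC-1, with an adjusted p of up to 0.119 and 0.0948. Retinol binding protein 4 (Rbp4), secreted by visceral endoderm, read -5.97, -6.02 and -6.06 against -4.66, -4.86 and -5.13, lower by -1.13 ± 0.15 with lines close together, and was called whichever line was left out. Of 25 parietal endoderm genes 7 were called, all higher, 4 of them without RMAPC-1. They include Nid1, Plat, Lamc1 and Snai1, already given, so that this list repeats genes of other lists.

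Pluripotency and germ line genes gave 7 calls of 23, all lower, and 6 without RMAPC-1, of which 5 were among the 7. Pou5f1 (Oct4), the pluripotency factor that is also present in nascent hypoblast, read -0.40, 0.84 and -0.49 against 2.44, 2.90 and 3.01, 6.97-fold lower (-2.80 ± 0.39, adjusted p = 0.00773). Dppa3, a maternal and germ cell factor, read -5.49, -4.03 and -4.51 against -0.90, -1.29 and 0.73, 18.3-fold lower (-4.19 ± 0.62). Both calls held whichever line was left out. Under the other scalings 3 to 11 members were called lower and 0 to 2 higher. The early mesoderm and epiblast list gave 4 calls of 11, all lower with and without RMAPC-1. Besides Gsc and Otx2 these were Zic2, at -4.77, -4.48 and -5.42 against -3.03, -3.45 and -3.13 (-1.69 ± 0.27), and Foxf1, a forkhead factor of mesoderm (-1.48 ± 0.19). The Pou5f1 probe, for which no position is given, is shown because its difference was called, while the groups differ by less than 1 for Gata4.

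Pou5f1 probe: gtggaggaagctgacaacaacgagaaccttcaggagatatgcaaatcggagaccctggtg

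RUNX genes, known from blood and bone, gave a single call. Runx1, the master factor of blood stem cell emergence, lies on chromosome 11 and read -0.60, 0.98 and -0.41 against 3.83, 4.44 and 4.76, 20.4-fold lower in the blastocyst lines (-4.35 ± 0.47, adjusted p = 0.00489). The median deviation of chromosome 11 was 0.26 and 0.28 on the 3C3 arrays, and its part in the Runx1 difference was not tested. Against CL19 alone, 1 bone marrow line, the Runx1 difference was -3.84. Runx2 (-0.40 ± 0.17), Runx3 (-0.57 ± 0.14), their partner Cbfb (-0.63 ± 0.18, on chromosome 19) and the corepressor Cbfa2t2 (0.19 ± 0.17) were not called with the probe that stands for each. Another probe of Cbfb gave -1.81 ± 0.25 (adjusted p = 0.0079). Other probes of Runx2 had the opposite sign, at 0.547 ± 0.28 and 1.257 ± 0.45, and were not called (adjusted p = 0.175 and 0.078). None of 13 blood cell genes was called by limma, and 5 had an unadjusted p under 0.05, 2 of them higher and 3 lower. Such a p was found for at least 8002 of all 23442 names.

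The calls among DNA methylation enzymes were all lower. Dnmt3a read -3.59, -3.82 and -5.17 against -1.92, -2.12 and -1.45, 5.16-fold lower (-2.37 ± 0.44, adjusted p = 0.0141), a call lost without RMAPC-1 (adjusted p = 0.0511). The cofactor Dnmt3l read 3.41, 4.46 and 0.85 against 5.80, 5.61 and 6.30 (-3.0 ± 0.90), and Dnmt3b 2.01, 2.21 and 1.07 against 3.19, 2.83 and 3.44 (-1.39 ± 0.34). Wk8 was lowest for all 3 enzymes. Of 17 genes of this group 4 were called, all lower, and none without RMAPC-1. The Polycomb subunit Cbx7 read -5.23, -3.69 and -7.90 against -2.19, -1.81 and -1.38 (-3.81 ± 1.03) and was 1 of 2 called lower among 34 Polycomb, Trithorax and SWI/SNF genes, 1 without RMAPC-1, where 5 were called higher and none lower without scaling between arrays. Dnmt3l, Dnmt3b and Cbx7 lost their calls when Fi1 or any bone marrow line was left out (adjusted p up to 0.125).

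Imprinted genes differed both ways, with 3 of 28 called higher and 2 lower, 4 and 1 without RMAPC-1. Plagl1, a paternally expressed zinc finger factor, read -1.36, -2.07 and -0.99 against -4.66, -5.72 and -6.02, 16.0-fold higher (4.0 ± 0.43, adjusted p = 0.00488). Kcnq1, the channel gene of the imprinted domain of its name, was 2.53 ± 0.27 higher. The maternal noncoding RNA H19 read 3.30, 4.24 and 1.00 against 6.85, 7.20 and 7.23, 19-fold lower (-4.25 ± 0.80), a call lost without RMAPC-1 and without 3C3 (adjusted p up to 0.0513). Cdkn1c, a maternally expressed cell cycle inhibitor, read 8.39, 8.10 and 8.64 against 6.87, 7.12 and 4.41 and missed the threshold with the probe that stands for it (2.25 ± 0.72, adjusted p = 0.0571). Its other 3 probes passed narrowly, with differences of 2.46 to 2.65 and adjusted p of 0.0444 to 0.0497. Array A of RMAPC-1 read 1.39 for it, and without RMAPC-1 the difference was 1.38 with an adjusted p of 0.0295. The balance of this list turned under normexp background correction, which called 1 higher and 2 lower.

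In the FGF pathway calls were few and included a receptor. Fgfr2, through which FGFs act on epithelia, read -3.25, -1.26 and -6.28 against 1.63, 2.04 and 2.60 with its brightest probe (-5.69 ± 1.22, adjusted p = 0.0192), with Wk8 not above background on either array. The call was lost without Fi1, RMAPC-1 or 3C3 (adjusted p up to 0.0646). Other Fgfr2 probes did not give the same value. The one at rn4 chr1:189499698-189501683 (minus strand) gave -2.72, and another gave -0.33 with an adjusted p of 0.0658. The brightest probe (chr1:189483073-189483132) and the one with -0.33 (chr1:189482950-189482987) lie close together. The probe with -2.72 is shown because the Fgfr2 probes disagree, for a reason that was not tested.

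Fgfr2 probe with -2.72: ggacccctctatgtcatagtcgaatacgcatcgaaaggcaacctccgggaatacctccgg

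Of 7 FGF ligands measured, Fgf8 was called higher (2.01 ± 0.41) at -2.29, -2.07 and -1.20 against -3.62, -3.40 and -4.55. Fgf13, an intracellular member, was at least 1.58-fold lower, with no blastocyst array above background. The other 5 ligands were not called, with Fgf19, an endocrine member, at -1.13 ± 0.63. Among 23 receptors, targets and feedback genes 2 were called lower, Fgfr2 and Etv4, an ETS factor induced by FGF (-1.57 ± 0.44), and none without RMAPC-1. The call of Etv4 held only without Fi2 among the 6 omissions, with an adjusted p of up to 0.0978 in the others.

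The list of the BMP, activin and TGF-β pathway gave 10 calls higher and 2 lower, Id3 and Ltbp4, among 59 genes, and 7 and none without RMAPC-1. Tgfb3, the ligand, read -1.74, -2.98 and -1.92 against -5.70, -7.17 and -5.90, 16.5-fold higher (4.05 ± 0.50, adjusted p = 0.00618). The 3C3 level of -7.17 lies below the dimmest signal above background on the 3C3 arrays (-6.13 and -5.87). Acvrl1 (ALK1), a type I receptor best known from endothelium, read -2.34, -3.19 and -2.04 against -5.96, -5.13 and -5.74 (3.08 ± 0.36). The ligand Bmp3 was 2.72 ± 0.51 higher, and array B of RMAPC-1, at -5.43, stood above the other bone marrow arrays. Ltbp4, which binds latent TGF-β, was lower by -1.10 ± 0.32 and held its call only without CL19 (adjusted p up to 0.0988). The calls of Tgfb3 and Acvrl1 held whichever line was left out, and that of Bmp3 was lost without 3C3 (adjusted p = 0.0517). That array was the only one of the 6 bone marrow arrays above background for Bmp3. Under the other scalings 7 to 18 were called higher and 0 to 4 lower.

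The WNT list gave 5 calls higher and 1 lower of 39, and 2 each without RMAPC-1. Rspo3, an R-spondin that amplifies WNT signalling, read 1.57, 1.00 and 1.93 against -0.57, -0.43 and -0.74, 4.22-fold higher (2.08 ± 0.25), and was called whichever line was left out. The secreted antagonist Dkk1 read 1.49, 1.89 and 1.41 against 2.42, 3.63 and 3.00 (-1.42 ± 0.33), a call lost without Fi1, Wk8, RMAPC-1 or 3C3 (adjusted p up to 0.0685). With spike-in scaling the balance turned to 4 higher and 5 lower.

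The IGF axis differed at ligand, receptor and binding protein. Igf1 read -1.09, -0.86 and -1.49 against 1.76, 1.14 and 2.26, 7.30-fold lower (-2.87 ± 0.32, adjusted p = 0.0051), and its other 3 probes gave -0.93 to -1.85, 2 of them short of the threshold of 1. Its receptor Igf1r was higher, at -4.05, -4.45 and -3.83 against -5.44, -5.44 and -5.30 (1.29 ± 0.18). The binding protein Igfbp7 read 0.53, 0.39 and 2.04 against -1.88, -2.51 and -3.32, 11.8-fold higher (3.56 ± 0.56). These 3 were called whichever line was left out. In all, 4 of 22 were called higher and 2 lower, 3 and 1 without RMAPC-1, and with spike-in scaling 4 and 7.

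Guidance receptors and their ligands were called in 1 direction. Of 24 semaphorin, plexin and neuropilin genes 5 were higher, also without RMAPC-1, and of 15 Eph receptors and ephrins 4, or 3 without RMAPC-1. Sema3c, a secreted semaphorin, read -3.65, -4.32 and -3.05 against -7.27, -7.02 and -5.97 (3.08 ± 0.45, adjusted p = 0.00839). Plexin B2 (Plxnb2) differed by 1.67 ± 0.21, and its ligand Sema4c by 1.60 ± 0.17. The receptor Ephb2 read -4.16, -3.43 and -2.60 against -6.29, -6.77 and -5.62, 7.13-fold higher (2.83 ± 0.47), Ephb3 (on chromosome 11) was 1.58 ± 0.28 higher, and the ligand ephrin A1 (Efna1) read -0.78, -0.73 and -0.75 against -1.68, -1.87 and -1.92 (1.07 ± 0.11). These 6 genes were called whichever line was left out. No member of the semaphorin list was called lower under any scaling (3 to 7 higher), nor of the Eph list (1 to 6 higher). Of 23 Notch pathway genes Notch1 alone was called, at least 1.82-fold lower with no blastocyst array above background, and the call was lost without CL19 or RMAPC-1 (adjusted p up to 0.059). Without scaling between arrays 2 Notch genes were called higher and none lower, and with normexp none was called.

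**Figure D4:**
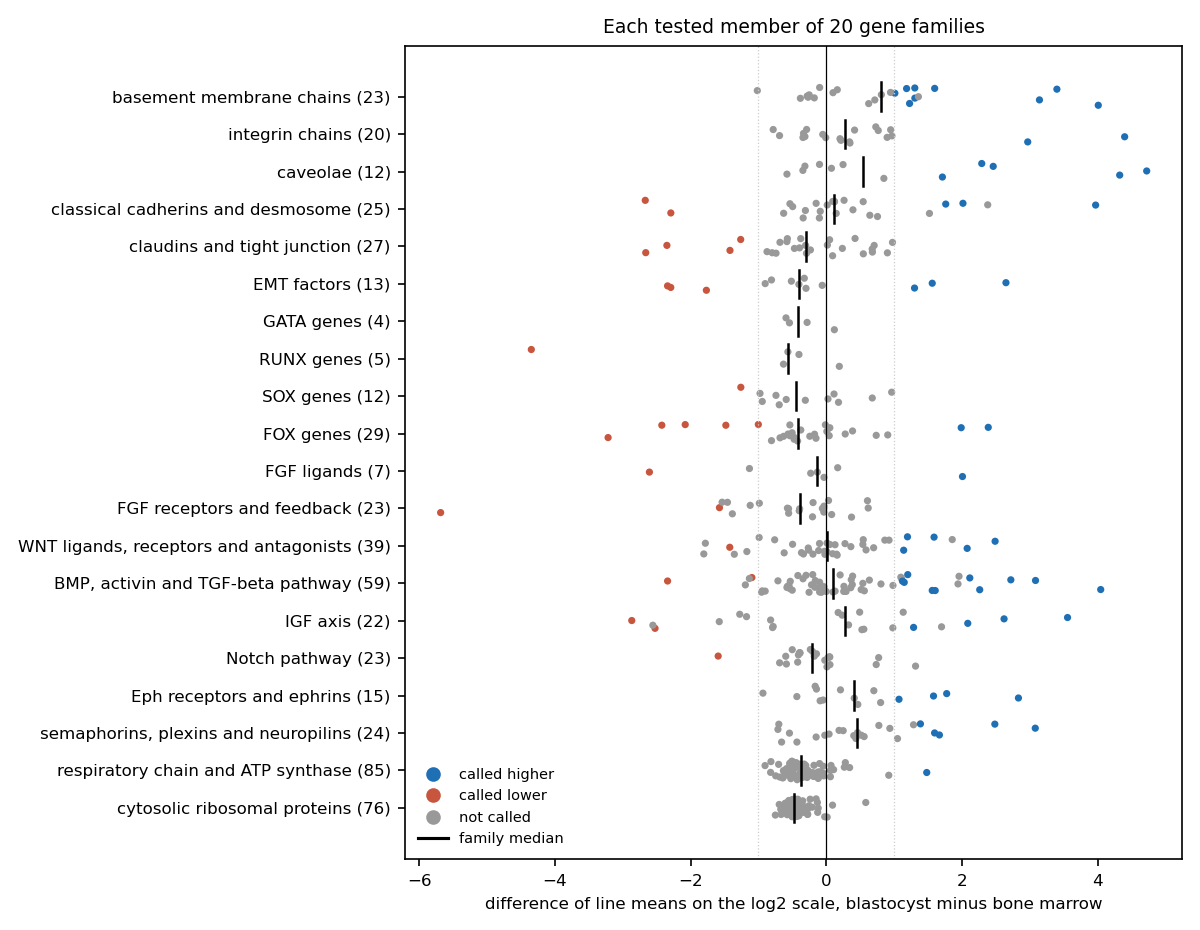
Difference of line means on the log2 scale (blastocyst minus bone marrow) for each tested member of 20 families, blue where called higher, red where called lower and grey where not called, with the family median as a black bar and the number tested in parentheses. Ribosomal proteins and respiratory chain genes lie in a narrow band with medians of -0.48 and -0.37, while the matrix, caveola and signalling families hold members with differences above 2.

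Adhesion GPCRs, receptors with long extracellular domains, gave 3 calls higher and 1 lower of 14, and 1 each without RMAPC-1. Adgrf5 (GPR116), best known from lung and endothelium, read 3.42, 2.84 and 3.44 against -0.70, -1.06 and -1.41, 19.6-fold higher (4.29 ± 0.25, adjusted p = 0.00295). Adgra2 (GPR124) was lower by -1.80 ± 0.25. Both were called whichever line was left out. The call of Adgra2 was lost on the A arrays alone (adjusted p = 0.142) and on the B arrays alone (0.113). It was also lost without array B of RMAPC-1 (-1.1, adjusted p = 0.166).

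Genes associated with endothelium were higher in the blastocyst lines, with 7 of 22 called, all higher, and 4 without RMAPC-1. The VEGF receptor Flt1, also a gene of trophoblast giant cells, read 2.44, 2.60 and 2.88 against 0.36, 0.05 and 0.11, 5.52-fold higher (2.46 ± 0.16, adjusted p = 0.00296). Another Flt1 probe gave a smaller difference of 1.26 ± 0.22. Von Willebrand factor (Vwf) read -0.26, -0.27 and 0.86 against -1.86, -2.90 and -2.58 (2.56 ± 0.41). Both were called whichever line was left out. Erg, an ETS factor on chromosome 11, differed by 2.43 ± 0.49, a call lost without RMAPC-1 and without 3C3 (adjusted p up to 0.0551). Of the endothelial markers fixed for the check above, Cldn5 was not above background on any array and Emcn on 1. The sum of these markers moved with the calls, as given above, and the part of endothelial cells in this was not tested. Under the other scalings 2 to 11 were called higher and none lower. Vcam1, an adhesion molecule of stroma and yolk sac, read 1.52, 0.22 and 0.18 against -2.44, -2.74 and -3.52, 11.6-fold higher (3.54 ± 0.46), and was the only one of 17 mesenchymal genes called.

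Inhibitors of the G1 kinases and the G1 kinase Cdk6 were among the higher calls, while no gene of the proliferation list was called. Cdkn2a, the gene of p16 and p19ARF, read 2.55, 2.53 and 3.44 against -0.42, 0.82 and -1.24, 8.69-fold higher (3.12 ± 0.55, adjusted p = 0.0126). Its neighbour Cdkn2b (p15) read -3.04, -3.30 and -3.08 against -4.97, -5.29 and -5.60 (2.15 ± 0.19), and Cdkn2c (p18) differed by 1.60 ± 0.24. All 3 were called whichever line was left out. Cdk6, named as the fourth call after its values were seen, was at least 2.48-fold higher, with 4 of 6 blastocyst arrays and no bone marrow array above background, and its call held only without Wk8 (adjusted p up to 0.118). Of 27 CDK inhibitors and p53 partners 4 were called, all higher, and 4 without RMAPC-1, of which 3 were among the first 4. None of 34 proliferation genes was called by limma, although 17 had an unadjusted p under 0.05, all lower, with a median of -0.35. Over all 23442 names, at least 8002 had such a p, and 5935 of these were lower.

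Antigen presentation and oxygen response each gave a few calls. Tap1, the peptide transporter of the MHC class I pathway, read 1.31, 0.53 and 1.23 against -0.55, -0.64 and -0.56, 3.04-fold higher (1.60 ± 0.23), and was called whichever line was left out. Of 21 class I genes 5 were called, all higher, and 1 without RMAPC-1. The RT1 genes among them are near-identical copies that one probe may not tell apart, so their values are uncertain and are not given. Adrenomedullin (Adm), a hypoxia-induced peptide, read 4.75, 3.51 and 4.47 against 0.94, 1.47 and 0.34, 10.1-fold higher (3.33 ± 0.42), and the hypoxia factor Epas1 (HIF-2α) 1.91, 2.13 and 2.46 against 0.79, 0.93 and 0.67 (1.37 ± 0.17). Of 29 hypoxia genes 4 were called higher and 1 lower, 3 and none without RMAPC-1.

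Retinoid genes were called both ways. Lrat, which stores retinol as esters, was at least 4.36-fold higher, and the retinol dehydrogenase Rdh10 read 0.89, 0.40 and 1.30 against -0.88, -0.81 and -0.62 (1.64 ± 0.24). Rbp4, given above, and the carotene-cleaving enzyme Bco1 (-1.78 ± 0.28, on chromosome 19) were lower, although the other Bco1 probe gave -0.245 ± 0.53 (adjusted p = 0.743). In all, 3 of 19 were called higher and 2 lower, and 2 each without RMAPC-1. Apoc1, an apolipoprotein, read -1.19, -0.39 and -1.0 against 1.56, 1.00 and 0.87 (-2.01 ± 0.28). It was 1 of 4 called lower among 31 lipoprotein and serum protein genes, of which 1 was called higher. Without RMAPC-1 3 were called lower and none higher, and without scaling between arrays the balance turned to 3 higher and 1 lower.

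General cell machinery gave almost no calls. None of 76 cytosolic ribosomal protein genes and none of 40 proteasome genes was called by limma. The medians were -0.48 and -0.34, and 65 and 25 of them had an unadjusted p under 0.05, of which 64 and 22 were lower. Among all 23442 names, at least 8002 had such a p. Of 85 respiratory chain genes 1 was called, higher, with a median of -0.37, and with spike-in scaling 1 was called higher and 3 lower. The ribosomal median was 0 without scaling and -0.01 after quantile normalization, so that the sign of this small shift rests on how the arrays were scaled.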

How the data were processed

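Total RNA of each line was labelled with Cy3 and hybridized to one-colour Agilent rat arrays. The deposited values are spot intensities: background-subtracted and detrended processed signals, raw mean and background signals, and spot flags, per the file headers, made with Agilent Feature Extraction 10.7.3.1, per the submitters' processing notes. The deposited log2 values of the series table equalled the values computed here and were used as a check.

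Control spots and outlier spots were left out, spots of a probe averaged, log2 processed signals reduced by the 75th percentile of each array, and arrays averaged by line. Of several probes of a gene the brightest over the 12 arrays stood for it. Probes were named through the RefSeq table (21847 of 41012 matched, and 19165 kept the name of the file), and a name was tested if both arrays of some line had its probe above background. limma 3.58.1 (R 4.3.3) was fitted across all 23442 names with 3 lines a group and 4 residual degrees of freedom. It was also run on data simulated with the gene means and spreads of these lines, in which it recovered known changes. Those data had independent noise for each line and no effect of slide or scaling, so they cannot speak to these limits. Figures were drawn with Python 3.11.15 and matplotlib 3.10.9. The number of lines limits the precision.

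Where no array of a group was above background, the fold is a bound against the dimmest signal that was above background. Where only some arrays of a group were, values not above background entered as read, and the size of such a fold is uncertain. Genes were named by rule: the 12 largest calls in each direction that also differed in Fi1 and Fi2 from CL19, up to 4 calls in each direction and the 4 brightest uncalled members of a list, and all members of lists of up to 8. The lines, members and lists were chosen with earlier results of these data known. Alternatives were background correction, scaling, filter, probe choice, slide, sex, array letter and each line left out. RClone-2 was not compared.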

Additional observations from a re-analysis of the deposited data

Results flagged for a closer look

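Among 268 sets of 6 arrays (a named gene or a chromosome stretch in 1 group), 14 held an array whose gap to its neighbour, divided by the range of the 6, was over Dixon's critical value. Chance gives about 1 in 20, and the arrays of a line are not independent. An array of RMAPC-1 was the one apart in 10 of the 14.

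Array A of RMAPC-1 was lowest of the bone marrow arrays for Cdkn1c (gap 0.847, level 1.39 against 6.59 to 7.54), Igfbp7 (0.659, -4.94 against -2.81 to -1.71), Krt6c (0.712, -4.18 against -3.08 to -2.64) and Slc15a2 (0.636, -6.86 against -4.50 to -3.15). It was highest for Dnmt3l (0.732, 7.24 against 5.36 to 5.86). Array B of RMAPC-1 was highest for Bmp3 (0.866, -5.43 against -8.01 to -7.66), Mrc1 (0.755, -2.23 against -4.73 to -4.12), Eif2s3y (0.855, 2.09 against -8.59 to -7.05) and Ddx3y (0.781, -1.01 against -8.10 to -6.55). It was lowest for the median deviation of the first 20 Mb of chromosome 19 (0.662, -0.64 against -0.11 to 0.16).

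On other arrays, Zic2 was lowest on array B of 3C3 (gap 0.636, -3.80 against -3.24 to -2.92). The first 20 Mb of chromosome 11 had their highest median deviation on array A of Wk8 (0.75, 0.21 against -0.03 to 0.03 on the other blastocyst arrays). Fgf13 was highest on array B of Fi1 (0.629, -7.45 against -8.83 to -8.32), and Notch1 lowest on array B of Wk8 (0.636, -8.61 against -7.28 to -6.52), and both genes were below background on all blastocyst arrays.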

How the results depend on the processing

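Of the 1116 names called higher and 1660 called lower, normexp background correction left 401 and 324, no scaling between arrays gave 2676 and 468, spike-in scaling 864 and 2940, a filter for signal above background on all 12 arrays 709 and 1078 (fewer names tested), and the B arrays alone 555 and 988; apart from the filter, the cause was not tested. A term for the pair of slides, the blastocyst lines against CL19 alone, and Fi1 and Fi2 against CL19 alone each gave 0 and 0, which compares them with 1 bone marrow line. Leaving out a line gave 647 to 1227 higher, lowest without RMAPC-1 and 661 without 3C3, and 1177 to 1784 lower. For genes with a symbol, 404 and 249 were left without RMAPC-1, an alternative chosen after seeing the data. The other alternatives stayed within 1.5 times of both counts. With the array letter as a replicate block beside line as a random block, 1285 and 1767 were called, against 1306 and 1785 without it. The letters do not pair the lines: deviations of lines sharing slides correlated at -0.22 to 0.41.

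None of the 111 called genes named here changed direction under any of the 27 alternatives that tested it. For part of these alternatives this was fixed in advance. The line means of all 2776 called names do not overlap between groups. Their sign therefore could not turn when a line was left out, against CL19 alone or with the slide term. The deposited values equalled those used here. Scalings by 1 value per array shift all differences alike, and put the median of all names between -0.44 and 0.26, against -0.22 here. A difference of at least 1 could not turn under them either. The slide term and the blastocyst lines against CL19 alone are the same fit. All 111 lost the call in the 3 comparisons with CL19 above, 44 on the B arrays alone, 38 under normexp, 27 without 3C3, 26 without RMAPC-1 and up to 19 under any other. Among uncalled genes the sign turned for Vim (-0.05 with spike-ins, -0.71 with the slide term and against CL19, -0.38 for Fi1 and Fi2 against CL19, -0.01 with sex, -0.11 on A arrays, -0.25 without array B of RMAPC-1, and -0.18 without 3C3 to 0.63 without CL19 over the lines left out, with -0.08 without Fi2) and Sparc (-0.13 with spike-ins, -0.04 with the slide term and against CL19, -0.13 for Fi1 and Fi2 against CL19, and -0.01 without RMAPC-1 to 0.17 without Fi2 over the lines left out). It also turned for Gata1 (-0.11 with spike-ins, -0.10 on B arrays, -0.12 without array A of RMAPC-1, and -0.05 without Fi2 to 0.29 without 3C3 over the lines left out), Gata4 (0.02 quantile, 0.20 unscaled), Runx2 (0.08 unscaled, 0.47 as the mean of probes) and Ehd1 (0.13 unscaled). With spike-ins it turned for Col4a1 (-0.06, and -0.03 for Fi1 and Fi2 against CL19), Ctnnb1 (-0.11, and -0.07 as the mean of probes) and Cbfa2t2 (-0.03). Of 67 lists, 21 had more calls on the other side under at least 1 scaling. Having 3 lines a side, and probes near background, limits what can be called.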

Other observations

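Several families outside the development of endoderm also held single members with large differences. Of 20 annexins and S100 proteins, calcium-binding proteins of the membrane and cytosol, 5 were called higher and 2 lower, and 2 and 1 without RMAPC-1. Annexin A1 (Anxa1) read 3.27, 2.17 and 3.03 against 0.81, 0.38 and 0.60, 4.67-fold higher (2.22 ± 0.31, adjusted p = 0.0075). S100a3, above background on 1 of 6 bone marrow arrays, differed by 1.44 ± 0.12, and S100z by -1.64 ± 0.24. Of 24 tetraspanins, organizers of membrane microdomains, 3 were called higher and 1 lower, 2 and 1 without RMAPC-1, with Tspan8 at 1.91 ± 0.31 and Tspan17 at -1.71 ± 0.19. Among 31 cathepsins and cystatins 3 were called higher and 2 lower, 2 and 1 without RMAPC-1, and with normexp 1 and 2. The aspartic protease cathepsin E (Ctse) was at least 2.91-fold higher, and the secreted protease inhibitor cystatin C (Cst3) read 5.62, 5.46 and 5.40 against 6.70, 6.82 and 7.34 (-1.46 ± 0.20). The mannose receptor Mrc1, an endocytic lectin, was 1.79 ± 0.25 higher. These 8 genes were called whichever line was left out.

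Of 29 forkhead genes 2 were called higher and 5 lower, and 2 each without RMAPC-1. Foxp1 read 3.52, 3.51 and 3.97 against 1.95, 1.32 and 1.75 (1.99 ± 0.22), and normexp background correction turned the balance of this list to 2 higher and 1 lower. Of 249 solute carriers 15 (6.0%) were called higher and 12 (4.8%) lower, near the shares of all genes with a symbol (5.51% and 3.49%). Without RMAPC-1, 5 solute carriers were called each way. The peptide transporter Slc15a2, on chromosome 11, was about 5-fold higher (2.32 ± 0.26), and with spike-in scaling the balance of the list turned to 12 higher and 18 lower, as with normexp to 4 and 5. Of 48 glutathione and metallothionein genes 1 was called higher and 4 lower, among them the gastrointestinal glutathione peroxidase Gpx2 (-1.24 ± 0.14). Without RMAPC-1 none was called higher and 1 lower, and the balance turned to 3 higher and 1 lower after quantile normalization and to 8 and none without scaling.

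Single genes outside these lists were also far apart. Plaat3, a phospholipase of the lysosome and peroxisome membrane, read 1.58, 0.67 and 3.00 against -2.07, -2.91 and -3.31, 22.8-fold higher (4.51 ± 0.64, adjusted p = 0.0078). The chloride channel Ano1, above background on 1 of 6 bone marrow arrays, differed by 4.15 ± 0.48. The prostaglandin E2 receptor Ptger2 read -5.33, -4.78 and -6.98 against -1.70, -0.70 and -1.55, 20.9-fold lower (-4.38 ± 0.60), and was above background on 4 of 6 blastocyst arrays. Mreg, melanoregulin, was at least 5.69-fold lower, with no blastocyst array well above background. Foxp1, Slc15a2, Gpx2, Plaat3, Ano1, Ptger2 and Mreg were called whichever line was left out.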
